A study of Homo sapiens with 16 samples.

Results

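The proteins that start, extend and end translation were followed through changes of 2 isoleucine tRNAs in MDA-MB-231 cells. They are 49 genes chosen by symbol, with earlier results of these data known. They comprise the eukaryotic initiation factors (EIF genes) and the EEF genes, which are the elongation factors, EEF1E1 and EEF2K. The others are the release factors ETF1 and GSPT1, the recycling factor ABCE1 and the poly(A)-binding proteins PABPC1 and PABPC4. The total RNA files list 26485 genes and the footprint files together list 13804. Of the 49 genes, 48 had a count in at least 1 footprint library and 47 in at least 1 total RNA library.

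Translation begins when eIF2, loaded with GTP and the initiator tRNA, joins eIF1, eIF1A, eIF3 and eIF5 on the small ribosomal subunit, and when the cap-binding complex eIF4F brings the mRNA to it. eIF4F consists of the cap-binding protein eIF4E, the scaffold eIF4G and the RNA helicase eIF4A. In elongation, eEF1A delivers each aminoacyl-tRNA to the ribosome and is recharged with GTP by its exchange complex eEF1B, made from the products of EEF1B2, EEF1D and EEF1G, and eEF2 then moves the ribosome by 1 codon. eRF1 and eRF3 (ETF1 and GSPT1) release the finished chain, and ABCE1 splits the subunits. Many mRNAs of this machinery begin with a C followed by a run of pyrimidines, the 5′ terminal oligopyrimidine motif through which growth signals control their translation.

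MDA-MB-231 is a human triple-negative breast cancer line, given in the labels as a xenograft cell line. Each culture carried a CRISPRi guide, against tRNA-Ile-GAU or against eGFP, and a construct, for tRNA-Ile-UAU or a control. The 4 conditions are the double modulation (GAU guide with UAU construct), the knockdown (GAU guide with control construct), the overexpression (eGFP guide with UAU construct) and the control (eGFP guide with control construct), each with 2 footprint and 2 total RNA libraries. All 16 libraries come from cells grown in DMEM with serum, with no drug treatment and with cycloheximide in the lysis buffer, so even the control cells carry a CRISPRi guide and a construct. Whether a line is a clone or a pool is not given in the sources used here. The labels do not say whether the 2 libraries of a group came from separate cultures, so p-values measure the spread between libraries, which may be technical. Mature tRNAs were not analysed here, and neither the knockdown nor the overexpression was checked. Levels are given in CPM, counts scaled to the library's total on genes. As CPM are shares of a library, a lower number of cells of a type cannot be told apart from less RNA per cell.

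Footprint libraries held 639320 to 938909 counts on genes with the GAU guide and 358340 to 607919 with the eGFP guide. Total RNA libraries held 2743415 to 5446599 counts with the GAU guide and 2512247 to 3866467 with the eGFP guide. The 49 genes took 1.43 to 1.68% of the footprint counts and 1.92 to 2.09% of the total RNA counts. The markers of the line were high, with VIM at 11443 to 13913 CPM in footprints. ESR1, CDH1, PTPRC, CD3E and CDH5 lay between 0 and 1.71 CPM in every library, and PGR reached at most 2.36 CPM. The other endothelial and fibroblast markers reached at most 15.6 CPM (COL1A1). The total RNA library of double replicate 1 stood apart. It held 185 CPM of EIF6 and 527 CPM of EIF5A, against 30.0 and 199 CPM in double replicate 2, and the lowest correlation between any pair of total RNA libraries, 0.963 across 12900 genes, was its correlation with overexpression replicate 1. Where leaving out this library changed the call of a named factor in total RNA or in translational efficiency, the value without it is given. A fit without double replicate 2 has this library as the only total RNA library of the double modulation.

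Footprints of 3 factors, EEF1G, EIF4A1 and EIF4A2, rose in the double modulation relative to control, each by less than 1 on the log2 scale. EEF1G rose most clearly where the construct was added to knockdown cells. No factor passed the test in the knockdown or in the overexpression alone, and none passed in total RNA or in translational efficiency, the change of footprints relative to that of total RNA. The threshold was an adjusted p of 0.05 in edgeR's quasi-likelihood test, with Benjamini-Hochberg adjustment over all genes tested. The comparisons of the 3 modulated conditions share their control libraries. In footprints, 47 of the 49 genes passed the filter on low counts, EIF1AX and EIF3C being the exceptions.

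In the double modulation, 3 of 47 factors rose in footprints and none fell, against 1.93% of all 8143 genes called in either direction and 0.528% called higher. The median log2 fold change of the 47 was 0.15 and that of all genes 0.01, with 30 of the 47 positive. At an unadjusted p under 0.05, 12 of the 47 (25.5%) were reached, against 11.9% of all genes. In the comparison of the construct in knockdown cells (double modulation over knockdown), which was added after the values were seen, 2 of 47 rose and none fell, against 0.442% of all genes in either direction and 0.135% higher. There the median was 0.15 against 0.00 for all genes, 37 of the 47 were positive, and 14 (29.8%) reached an unadjusted p under 0.05, against 8.31% of all genes. The genes were chosen with earlier results of these data known, so these shares are no independent contrast.

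**Figure D1:**
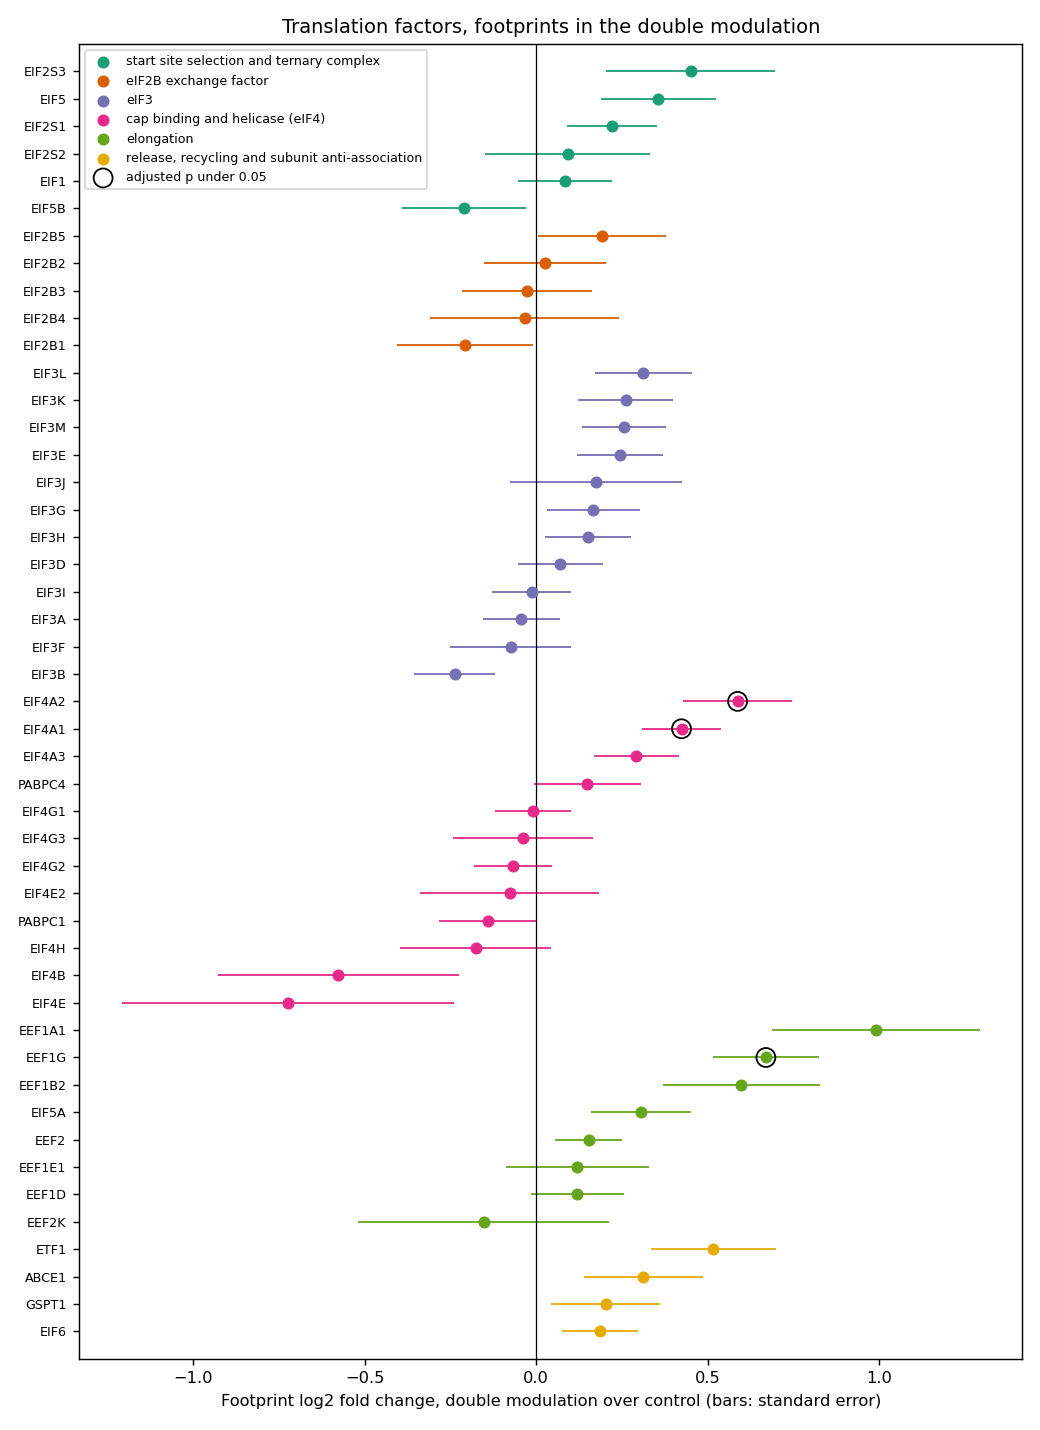
Footprint log2 fold change of each of the 47 tested factors in the double modulation over control (points, with standard errors as bars), grouped by role; rings mark an adjusted p under 0.05. The ringed factors are EIF4A2, EIF4A1 and EEF1G, and 7 of the 8 genes of the elongation group lie above 0.

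The elongation factors held the strongest change. EEF1G encodes the gamma subunit of eEF1B, which anchors the exchange complex, and lies on chromosome 11 (chr11:62559596-62573891, GRCh38.p14). Its footprint level was 255 and 264 CPM in the double modulation, 93.0 and 128 CPM in the knockdown, 162 and 213 CPM in the overexpression and 181 and 140.3 CPM in the control. Both double libraries lay above the other 6, and both knockdown libraries lay below the other 6. In knockdown cells the construct raised the EEF1G footprint level 2.33-fold (log2 fold change 1.22 ± 0.16, SE; adjusted p = 4.31e-09, edgeR), the lowest p among the 8143 genes. Leaving out any of the 4 libraries gave 1.01 to 1.46 with adjusted p of at most 0.000237, and the call held without the filter, after thinning, with the other size factors and in the block. DESeq2 gave EEF1G no adjusted p here: its filter on mean counts left 35 of the 47 factors without one.

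In the double modulation against control EEF1G rose by 0.67 ± 0.16 (adjusted p = 0.00477, edgeR). This call was lost with DESeq2 (0.67, adjusted p = 0.0841) and without control replicate 2 (0.50, adjusted p = 0.373). With the guides pooled, the construct raised it by 0.73 ± 0.12 (adjusted p = 1.59e-05), and the call was lost without overexpression replicate 2 (0.61, adjusted p = 0.0932). The effect of the construct was 0.97 ± 0.24 larger in knockdown cells than in eGFP cells on the log2 scale, which missed the threshold (adjusted p = 0.0670, edgeR). It passed with the replicate number as a block (0.99, adjusted p = 0.0208) and without knockdown replicate 2 (1.21, adjusted p = 0.0158). The knockdown alone had 0.55 lower EEF1G footprints on the log2 scale, which did not pass (log2 fold change -0.55 ± 0.17, adjusted p = 0.113). This value was -0.34 without knockdown replicate 1, -0.36 without control replicate 1, -0.72 without control replicate 2 and -0.79 without knockdown replicate 2, with adjusted p of 0.0569 to 0.770.

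EEF1G total RNA was 758 and 641 CPM in the double modulation, 782 and 706 CPM in the knockdown, 620.3 and 634 CPM in the overexpression and 625 and 633 CPM in the control. The 4 GAU-guide libraries lay above the 4 eGFP-guide libraries, and the double and knockdown libraries overlapped. Its translational efficiency in the construct comparison within knockdown cells was 1.33 ± 0.21 on the log2 scale, the lowest p among the 8012 genes tested, but did not pass over all of them (adjusted p = 0.114, edgeR). It passed without the total RNA library of double replicate 1 (1.42, adjusted p = 3.58e-05), without replicate 2 (1.25, adjusted p = 7.17e-05), with no filter on low counts (adjusted p = 0.0311), in DESeq2 (adjusted p = 0.000137) and in a block with crossed replicate numbers (adjusted p = 0.0258). RefSeq names 8 pseudogenes of EEF1G, and reads placed at several positions were not counted on genes, so its levels may be incomplete.

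**Figure D2:**
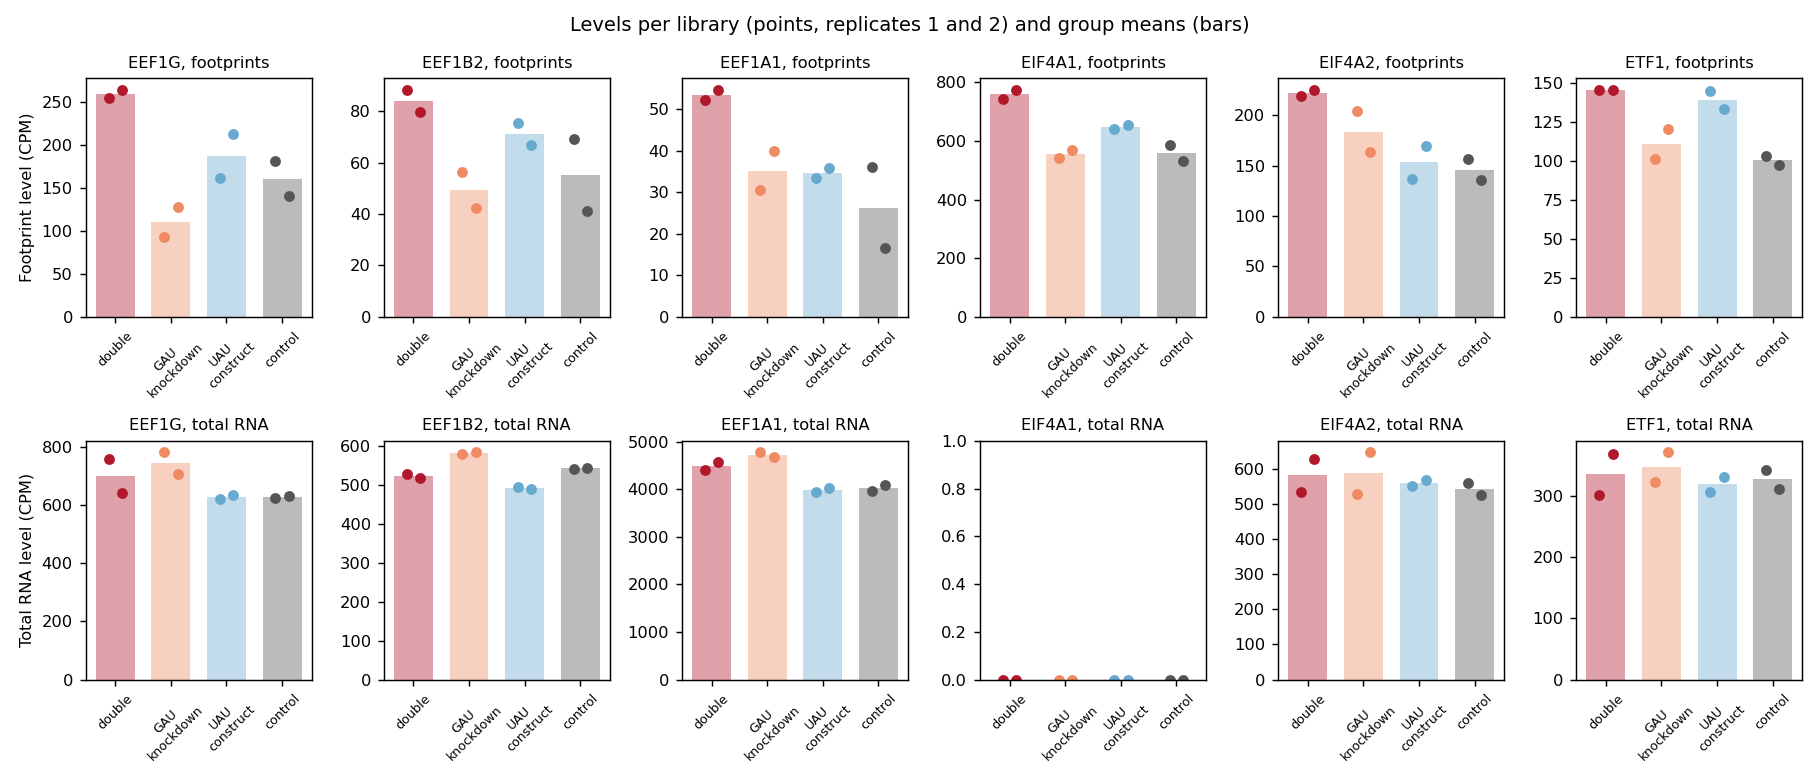
Footprint level (top row) and total RNA level (bottom row), both in CPM from 0, of 6 factors in each library (points) with group means (bars), for the double modulation, knockdown, overexpression and control. EEF1G footprints reach 255 and 264 CPM in the double modulation and 93.0 and 128 CPM in the knockdown, while its total RNA spans 620.3 to 782 CPM over all libraries; EIF4A1 is listed at 0 in total RNA.

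The partner subunits EEF1B2 and EEF1D and the GTPase EEF1A1 did not pass in any footprint comparison with the replicate number left out of the fit. EEF1B2, which carries the exchange activity of eEF1B, had a footprint level of 88.4 and 79.8 CPM in the double modulation, 56.5 and 42.3 CPM in the knockdown, 75.3 and 66.9 CPM in the overexpression and 69.1 and 41.3 CPM in the control. The double libraries lay above the other 6. The construct in knockdown cells gave 0.77 ± 0.22 (adjusted p = 0.0780, edgeR) and with the guides pooled 0.55 ± 0.17 (adjusted p = 0.175). EEF1B2 total RNA moved the other way, at 529 and 519 CPM in the double modulation, 579 and 584 CPM in the knockdown, 495 and 489 CPM in the overexpression and 541 and 545 CPM in the control. With either guide the construct libraries were below the control-construct libraries (pooled -0.14 ± 0.06, unadjusted p = 0.0438, adjusted p = 1.00). The translational efficiency of EEF1B2 in the construct comparison was 0.93 ± 0.24 within knockdown cells and 0.70 ± 0.18 with the guides pooled (adjusted p = 1.00 each), and the first passed without the total RNA library of double replicate 1 (adjusted p = 0.0471) or replicate 2 (adjusted p = 0.0112).

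EEF1A1 footprints were 52.2 and 54.7 CPM in the double modulation, 30.6 and 39.9 CPM in the knockdown, 33.5 and 36.0 CPM in the overexpression and 36.2 and 16.5 CPM in the control. The double libraries again lay above the other 6, but the control libraries differed more than any other pair. The change over control was 0.99 ± 0.30 (adjusted p = 0.0601, and 0.0466 with the replicate number as a block, edgeR). It rests on few counts, 22 and 10 in the control and 49 and 35 in the double modulation. RefSeq names 50 EEF1A1 pseudogenes, and reads placed at several positions were not counted. Its total RNA was 4401 and 4575 CPM in the double modulation, 4774 and 4670.2 CPM in the knockdown, 3941 and 4022 CPM in the overexpression and 3973 and 4084 CPM in the control, with the 4 GAU-guide libraries above the 4 eGFP-guide libraries (guide pooled 0.20 ± 0.07, adjusted p = 0.324). EEF1D, the delta subunit, had 0.32 ± 0.13 in footprints for the construct in knockdown cells (adjusted p = 0.435).

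EEF2, the translocase, had 3623 and 4136 footprint CPM in the double modulation, 3083 and 3332 CPM in the knockdown, 3890.2 and 3631 CPM in the overexpression and 3412 and 3480.3 CPM in the control. The knockdown libraries were below the other 6, and the construct in knockdown cells gave 0.27 ± 0.10 (adjusted p = 0.282). EEF2 total RNA was 1191 and 855 CPM in the double modulation, 1058 and 917 CPM in the knockdown, 845 and 859 CPM in the overexpression and 788 and 835 CPM in the control. The double modulation gave 0.32 ± 0.14 in total RNA (adjusted p = 0.636). This value was 0.10 without double replicate 1. It was 0.51 without double replicate 2, where double replicate 1, the library that stood apart, was alone in its group. EEF2 translational efficiency was -0.41 ± 0.18 in the knockdown (adjusted p = 1.00) and -0.31 ± 0.13 with the constructs pooled for the guide (adjusted p = 0.867). The guide value was -0.40 without the total RNA library of double replicate 2, again with double replicate 1 alone.

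EEF2K, the kinase that inhibits eEF2, had 38.0 and 37.8 CPM of total RNA in the double modulation, 32.4 and 29.7 CPM in the knockdown, 28.2 and 35.2 CPM in the overexpression and 37.0 and 37.6 CPM in the control. The double and control libraries lay above the knockdown and overexpression libraries, and the interaction of guide and construct was 0.49 ± 0.23 (adjusted p = 0.998). EEF1E1, a scaffold of the multisynthetase complex, had 7.53 and 5.80 CPM of total RNA in the double modulation, 1.82 and 4.92 CPM in the knockdown, 4.25 and 5.69 CPM in the overexpression and 5.97 and 5.98 CPM in the control. These are few counts, and the construct in knockdown cells gave 0.89 ± 0.42 (adjusted p = 1.00). The 8 genes of the elongation group include EEF2K and EEF1E1, which are not elongation factors themselves. Over the group, the footprint fold change of the construct in knockdown cells was positive for 8 of 8, from 0.01 to 1.22, with a median of 0.30. That of the double modulation was positive for 7 of 8 with a median of 0.23. That of the knockdown was positive for 3 of 8 with a median of -0.14.

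**Figure D3:**
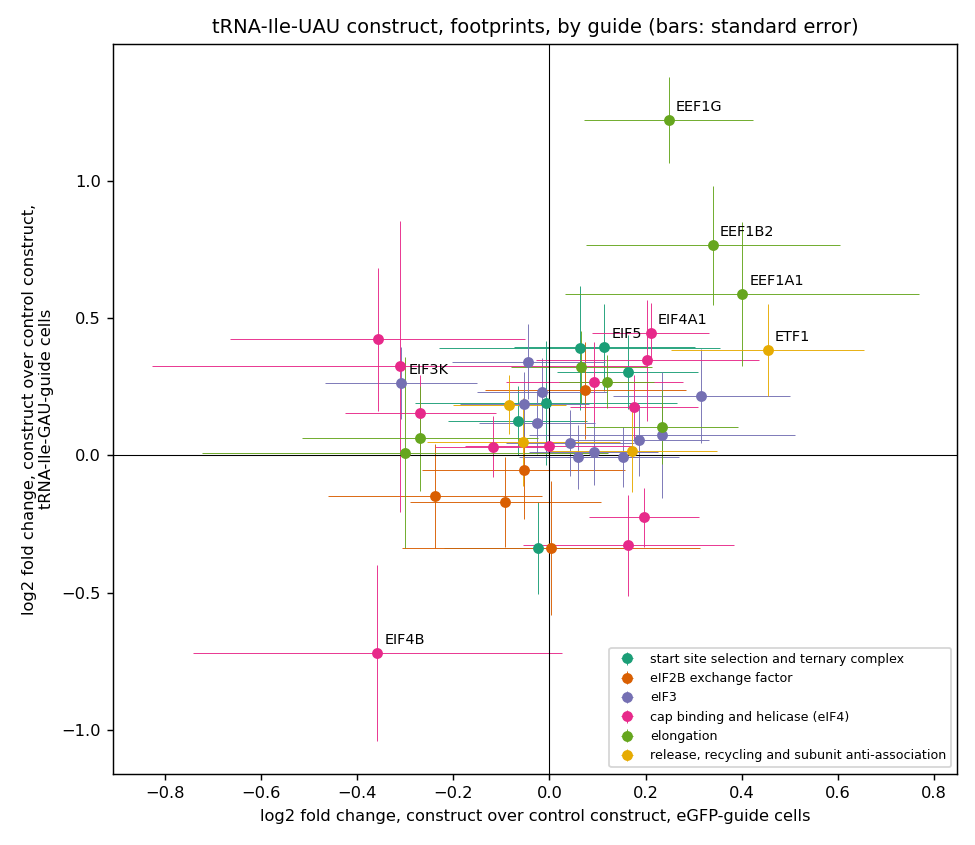
Footprint log2 fold change of the construct over the control construct in eGFP-guide cells (horizontal) and in GAU-guide cells (vertical) for the 47 tested factors, with standard errors as bars and colours by role. EEF1G lies at 1.22 in GAU-guide cells against 0.25 in eGFP-guide cells; the axes share no library.

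The start of these mRNAs was read from RefSeq (GRCh38.p14) to show how the elongation and helicase genes differ there. Each window holds 20 bases before the annotated start and 10 from it, on the gene's strand, with capitals for the unbroken run of C and T that begins at the start.
EEF1G (chr11:62573882-62573911, minus strand): ccttctctcccgggcggcttactttgcggc
EEF1A1 (chr6:73521023-73521052, minus strand): cagtagtcgccgtgaacgttCTTTTTCgca
EEF1B2, upstream start (chr2:206159589-206159618, plus strand): gttccgccggaagtggccccagcctcgagg
EEF1B2, downstream start (chr2:206159875-206159904, plus strand): attttccggtctcttcgggtCCTTTTTCCT
EEF2 (chr19:3985454-3985483, minus strand): tgagtgttgacgtcagcgttCTCTTCCgcc
EIF4A1 (chr17:7572805-7572834, plus strand): tcgataggcgggcactccgcCCTagtttct
EIF4A2 (chr3:186783557-186783586, plus strand): gggtggttgggcgccgctgtCTTTTCagtc

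A C at the annotated start followed by 4 bases that are each C or T was searched on the gene's strand at that position alone. Of the 40 factors in the promoter table, 10 (25%) held it at any listed start. Of the table's 35116 promoters, each counted singly, 4.07% held it, so the shares have unlike units. Counted by gene among those tested in footprints, 549 held it and 6267 did not. The 10 factors are EEF1A1, EEF1B2, EEF2, EIF2S3, EIF3D, EIF3F, EIF3K, EIF3M, EIF4A2 and EIF4B. Their median footprint change for the construct in knockdown cells was 0.27, with 9 of 10 positive, and that of the 28 tested factors without the motif was 0.09, with 20 positive. Over all tested genes in the table, the median was 0.01 for 549 genes with the motif and 0.00 for 6267 without it. In the double modulation the footprint medians were 0.26 with the motif and 0.06 without it among the factors, against 0.00 and 0.01 over all genes. There the total RNA medians of the factors were 0.13 and 0.01, and their efficiency medians 0.09 and 0.05, with 5 of 10 and 17 of 27 positive. EEF1G and EIF4A1, the factors that rose with the construct, do not hold these letters at the start given in the table, which says nothing of the starts that these cells use.

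The helicase and cap-binding group gave the other called factors. EIF4A1 encodes the main eIF4A helicase, which unwinds the 5′ end of mRNAs (chr17:7572825-7579006). Its footprint level was 744 and 774 CPM in the double modulation, 542 and 568 CPM in the knockdown, 642 and 655 CPM in the overexpression and 587 and 529.7 CPM in the control. Both double libraries lay above the other 6, and both overexpression libraries above the knockdown and control libraries. EIF4A1 rose by 0.42 ± 0.11 in the double modulation (adjusted p = 0.0230), by 0.44 ± 0.11 with the construct in knockdown cells (adjusted p = 0.0299) and by 0.33 ± 0.08 with the construct over both guides (adjusted p = 0.0289, edgeR).

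The EIF4A1 calls depended on the libraries kept, while the fold changes moved little. Leaving out any library gave 0.36 to 0.50 in the double modulation, 0.41 to 0.48 in knockdown cells and 0.30 to 0.36 over both guides. The call in the double modulation was lost without control replicate 1 (0.50, adjusted p = 0.0862), control replicate 2 (0.36, adjusted p = 0.418) or double replicate 2 (0.39, adjusted p = 0.109). The call in knockdown cells was lost without knockdown replicate 1 (0.41, adjusted p = 0.448), knockdown replicate 2 (0.47, adjusted p = 0.109) or double replicate 2 (0.41, adjusted p = 0.115), and with all libraries thinned to the depth of the shallowest (0.51, adjusted p = 0.0557). The pooled call was lost without any library other than double replicate 1, at 0.30 to 0.36 with adjusted p between 0.0567 and 0.346. In total RNA EIF4A1 was listed at 0 in all 8 libraries, although its footprints summed to 3414 counts. The read-through gene SENP3-EIF4A1 (chr17:7561992-7579006), which contains EIF4A1, was listed with 7 total RNA counts and is absent from the footprint lists, so the total RNA and the ratio of EIF4A1 cannot be given. RefSeq names 13 EIF4A1 pseudogenes.

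EIF4A2, the second eIF4A helicase, lies on chromosome 3 (chr3:186783577-186789897). Its footprint level was 219 and 225 CPM in the double modulation, 204 and 163 CPM in the knockdown, 137 and 169.7 CPM in the overexpression and 156 and 135 CPM in the control. The double libraries lay above the other 6, and the knockdown and overexpression libraries overlapped. EIF4A2 rose by 0.59 ± 0.16 in the double modulation (adjusted p = 0.0244) and by 0.41 ± 0.12 for the GAU guide over the eGFP guide with the constructs pooled (adjusted p = 0.0287, edgeR). In this guide comparison 1 of 47 factors was called, against 2.68% of all genes in either direction and 0.688% called higher, a share near that of all genes in either direction.

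EIF4A2 total RNA was 536 and 629 CPM in the double modulation, 530.0 and 648 CPM in the knockdown, 551 and 568 CPM in the overexpression and 561 and 527 CPM in the control, and all groups overlapped. Its footprint calls depended on the tool and on most libraries. The call in the double modulation was lost in DESeq2 (0.59, adjusted p = 0.149), after thinning (0.59, adjusted p = 0.150) and without control replicate 1 (adjusted p = 0.0901), control replicate 2 (adjusted p = 0.418), double replicate 1 (adjusted p = 0.0622) or double replicate 2 (adjusted p = 0.100). The guide call was lost in DESeq2 (0.41, adjusted p = 0.315), after thinning (0.41, adjusted p = 0.134) and without either control library, either overexpression library or knockdown replicate 1 (0.32 to 0.50, adjusted p 0.0533 to 0.245). The GAU-guide footprint libraries are all deeper than the eGFP-guide libraries, and thinning left both fold changes of EIF4A2 near their values at full depth.

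The other members of this group did not pass in footprints. EIF4E, the cap-binding protein, had 10.7 and 14.1 footprint CPM in the double modulation, 5.89 and 13.3 CPM in the knockdown, 19.5 and 13.7 CPM in the overexpression and 11.5 and 28.1 CPM in the control. These low levels overlapped between groups, except that both knockdown libraries lay below both overexpression libraries. The knockdown gave -1.05 ± 0.50 (adjusted p = 0.459), a value that ran from -0.27 without control replicate 2 to -1.72 without knockdown replicate 2. The scaffold EIF4G1 had 754 and 912 footprint CPM in the double modulation, 941 and 991 CPM in the knockdown, 954 and 943 CPM in the overexpression and 788 and 859.8 CPM in the control. Both singly modulated conditions lay above the double modulation and the control, and the interaction was -0.42 ± 0.16 (adjusted p = 0.665, edgeR). In EIF4G1 total RNA both singly modulated conditions also lay above the double modulation and the control, but there the double libraries lay below the control libraries. The levels were 837 and 875 CPM in the double modulation, 976 and 959.8 CPM in the knockdown, 955 and 964 CPM in the overexpression and 907 and 939.7 CPM in the control. The construct in knockdown cells gave -0.19 ± 0.09 in total RNA (adjusted p = 1.00). This value was -0.26 without double replicate 2, where double replicate 1, the library that stood apart, was alone in its group.

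EIF4E2, a cap-binding homologue that represses translation, had 44.7 and 53.2 footprint CPM in the double modulation, 38.9 and 32.6 CPM in the knockdown, 44.7 and 36.0 CPM in the overexpression and 55.9 and 44.6 CPM in the control. Its efficiency in the knockdown was -0.49 ± 0.25 (adjusted p = 1.00). PABPC1, which binds the poly(A) tail, had 219 and 252 footprint CPM in the double modulation, 200.2 and 219 CPM in the knockdown, 209 and 214 CPM in the overexpression and 263 and 246 CPM in the control. The knockdown and overexpression libraries lay below the control libraries, and the interaction in efficiency was 0.49 ± 0.26 (adjusted p = 1.00). Over the 12 members of the group, the median footprint change in the double modulation was -0.05, with 4 positive, and EIF4A1, EIF4A2 and the exon junction helicase EIF4A3 (0.29 ± 0.12, adjusted p = 0.292) were the 3 largest.

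The release and recycling factors were all positive in footprints of the double modulation, with a median of 0.26 over 4 genes, and none passed. ETF1, which reads the stop codons, had 146 and 145 footprint CPM in the double modulation, 101 and 121 CPM in the knockdown, 145 and 134 CPM in the overexpression and 104 and 97.4 CPM in the control. With the UAU construct all 4 libraries lay above the 4 with the control construct. The overexpression gave 0.45 ± 0.20 (adjusted p = 0.884) and the double modulation 0.52 ± 0.18 (adjusted p = 0.135, edgeR). ETF1 total RNA overlapped between all groups, at 302 and 369.6 CPM in the double modulation, 324 and 372 CPM in the knockdown, 308 and 332 CPM in the overexpression and 343 and 312 CPM in the control. Its efficiency with the construct was 0.46 ± 0.15 (adjusted p = 1.00).

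GSPT1, the release GTPase, changed by 0.20 ± 0.16 in footprints of the double modulation, ABCE1 by 0.31 ± 0.17 and EIF6, which keeps the subunits apart, by 0.19 ± 0.11. EIF6 total RNA had the widest spread, at 185 and 30.0 CPM in the double modulation, 75.5 and 56.4 CPM in the knockdown, 32.8 and 66.0 CPM in the overexpression and 65.3 and 40.2 CPM in the control.

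Within eIF3, which holds the small subunit ready for the mRNA, no subunit passed in footprints. Of the 12 tested subunits 8 were positive in the double modulation (median 0.16) and 10 with the construct in knockdown cells (median 0.10). EIF3K had 350.4 and 303 footprint CPM in the double modulation, 281 and 263 CPM in the knockdown, 167 and 257 CPM in the overexpression and 289.5 and 252 CPM in the control. Its low value in overexpression replicate 1 stands beside an overexpression change of -0.31 ± 0.16 (adjusted p = 0.962), which was -0.08 without that library, and an interaction of 0.57 ± 0.21 (adjusted p = 0.665). EIF3F had 126 and 139 footprint CPM in the double modulation, 97.8 and 128 CPM in the knockdown, 193 and 156 CPM in the overexpression and 133 and 140.3 CPM in the control. The overexpression libraries were the highest, and the efficiency for the guide was -0.49 ± 0.18 (adjusted p = 0.867). This efficiency was -0.58 without the total RNA library of double replicate 2, where double replicate 1, the library that stood apart, was alone in its group.

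EIF3B, a core scaffold subunit, and EIF4H, a cofactor of eIF4A, lie on chromosome 7 (chr7:2354086-2380745 and chr7:74174356-74197096), and both were low with the GAU guide. EIF3B total RNA was 476 and 473 CPM in the double modulation, 469.9 and 467 CPM in the knockdown, 585 and 557 CPM in the overexpression and 573 and 563 CPM in the control. EIF4H total RNA was 216 and 205 CPM in the double modulation, 209 and 217 CPM in the knockdown, 245 and 274 CPM in the overexpression and 251 and 259 CPM in the control. For each, the 4 GAU-guide libraries lay below the 4 eGFP-guide libraries. EIF3B in the double modulation alone had -0.26 ± 0.09 in total RNA (adjusted p = 0.491). This value was -0.23 without double replicate 1. It was -0.30 without double replicate 2, where double replicate 1, the library that stood apart, was alone in its group. The guide change in total RNA was -0.28 ± 0.06 for EIF3B (adjusted p = 0.0923) and -0.28 ± 0.07 for EIF4H (adjusted p = 0.0925, edgeR). EIF3B passed in DESeq2 (adjusted p = 0.0192), and both passed without the total RNA library of double replicate 1 (adjusted p = 0.00695 and 0.00786) or of double replicate 2 (adjusted p = 0.000966 and 0.00342).

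EIF3B footprints were 489.9 and 496 CPM in the double modulation, 463 and 523 CPM in the knockdown, 592 and 607 CPM in the overexpression and 551 and 596 CPM in the control. EIF4H footprints were 62.8 and 76.6 CPM in the double modulation, 55.4 and 52.0 CPM in the knockdown, 106 and 77.1 CPM in the overexpression and 77.3 and 75.9 CPM in the control. The guide groups of EIF3B did not overlap, while those of EIF4H did. The guide change in footprints was -0.26 ± 0.08 for EIF3B (adjusted p = 0.0709, and 0.0470 with the replicate number as a block) and -0.45 ± 0.16 for EIF4H (adjusted p = 0.122). Other genes of chromosome 7 moved alongside, with a median guide change of -0.39 in footprints (340 of 369 genes lower) and -0.37 in total RNA (514 of 551 lower). The part of the chromosome in the 2 values was not tested.

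**Figure D4:**
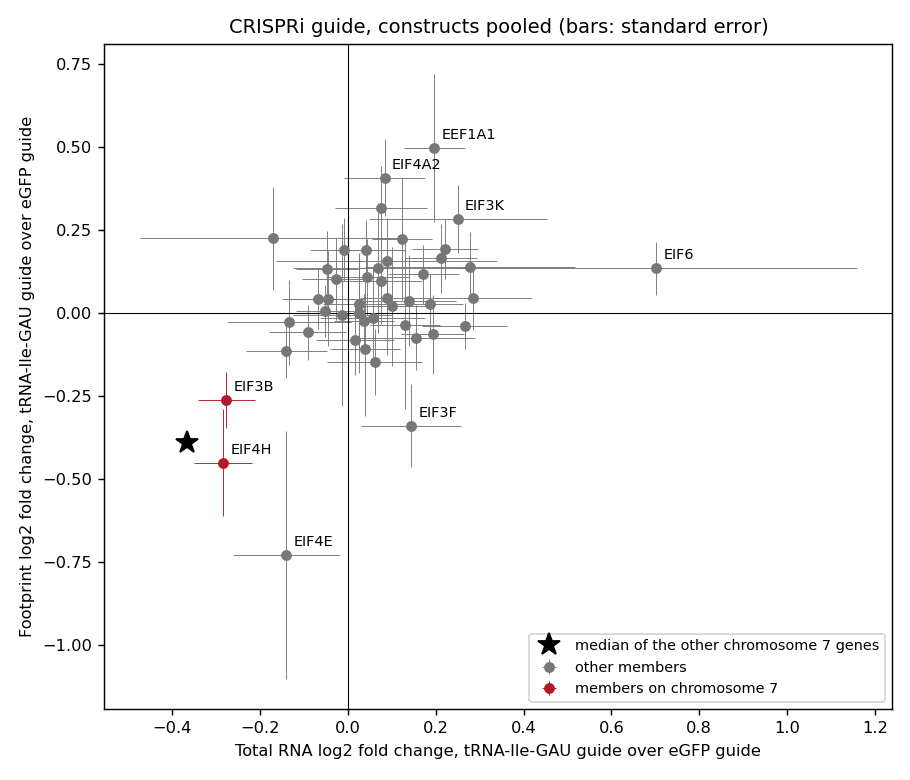
Log2 fold change of the GAU guide over the eGFP guide with the constructs pooled, in total RNA (horizontal) and footprints (vertical), for the 46 factors tested in both, with standard errors as bars. EIF3B and EIF4H (red) lie near the star, the median of the other chromosome 7 genes at -0.37 and -0.39.

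EIF3D, which can bind the cap itself, had 186 and 174 CPM of total RNA in the double modulation, 195 and 191 CPM in the knockdown, 165 and 169 CPM in the overexpression and 147 and 171 CPM in the control. The GAU-guide libraries lay above the eGFP-guide libraries, and the knockdown gave 0.28 ± 0.11 (adjusted p = 0.611). EIF3E had 252 and 276 CPM in the double modulation, 228 and 254 CPM in the knockdown, 205 and 213 CPM in the overexpression and 227 and 219 CPM in the control. Its GAU-guide libraries lay above its eGFP-guide libraries, and its guide change in total RNA was 0.22 ± 0.08 (adjusted p = 0.292), which passed without double replicate 1 (0.27, adjusted p = 0.0126). EIF3L had 138 and 109 CPM in the double modulation, 104 and 105 CPM in the knockdown, 92.8 and 94.4 CPM in the overexpression and 103 and 101 CPM in the control, with an interaction of 0.34 ± 0.16 in total RNA (adjusted p = 0.998). EIF3C was listed at 0 in all total RNA libraries and is absent from the footprint lists, and the same holds for its near-identical copy EIF3CL.

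The factors of start site selection and the ternary complex gave no call. Their median footprint change was 0.16 in the double modulation, with 5 of 6 positive, and 0.25 with the construct in knockdown cells, also with 5 of 6. EIF2S3, the eIF2 gamma subunit (0.45 ± 0.25), and EIF5, which triggers GTP hydrolysis on eIF2 (0.36 ± 0.17), were the highest of them in the double modulation. EIF1AX, encoding eIF1A, did not pass the footprint filter at 6.86 to 19.5 CPM. Its total RNA was 70.3 and 82.2 CPM in the double modulation, 74.0 and 85.2 CPM in the knockdown, 71.1 and 67.2 CPM in the overexpression and 83.2 and 76.4 CPM in the control, with an overexpression change of -0.19 ± 0.14 (adjusted p = 0.999). The eIF2B subunits, which recharge eIF2 with GTP, had a median footprint change of -0.03 in the double modulation. EIF2B3 held 55.6 and 55.0 CPM of total RNA in the double modulation, 59.8 and 60.4 CPM in the knockdown, 54.1 and 55.3 CPM in the overexpression and 59.7 and 56.8 CPM in the control. Its construct libraries lay below its control-construct libraries (pooled -0.10 ± 0.08, adjusted p = 1.00).

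In the knockdown, edgeR called none of 47 factors in footprints, against 1.11% of all genes, with 6 (12.8%, against 9.75% of all genes) at an unadjusted p under 0.05 and none called by DESeq2, which gave no adjusted p to 26 of the 47. In the overexpression none was called, against 0.0246% of all genes, with 1 (2.13%, against 5.02% of all genes) at an unadjusted p under 0.05 and none by DESeq2. The construct with the guides pooled had 2 calls in edgeR, both higher, against 0.43% of all genes in either direction and 0.135% higher, and 2 in DESeq2. The interaction had none, against 0.0614%, with 4 (8.51%, against 5.83% of all genes) at an unadjusted p under 0.05 and none by DESeq2.

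In total RNA edgeR called none of 47 factors in any comparison. All genes were called at 0.0683% in the double modulation, 0.0256% in the knockdown, 1.08% for the guide and 0% in the overexpression, the pooled construct, the interaction and the construct in knockdown cells. At an unadjusted p under 0.05 there were 5 factors in the double modulation (10.6%, against 7.62% of all genes), 5 in the knockdown (10.6%, against 6.94%), 8 for the guide (17.0%, against 10.5%) and 1 for the pooled construct (2.13%, against 1.96%), and 0 in the other comparisons, where all genes had 1.99 to 2.81%. DESeq2 called 1, EIF3B for the guide. Without the total RNA library of double replicate 2, edgeR called factors in every comparison that uses the double modulation, and calls over all genes rose there too. In those fits double replicate 1, the library that stood apart, was the only total RNA library of the double modulation. Without double replicate 1 edgeR called factors only for the guide and for the construct in knockdown cells, again with more calls over all genes.

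In translational efficiency none of 46 factors and 0% of the 8012 genes tested passed in any comparison by edgeR. At an unadjusted p under 0.05 there were 5 factors in the double modulation (10.9%, against 4.18% of all genes), 2 in the knockdown (4.35%, against 3.34%), 0 in the overexpression (against 2.78%), 2 for the guide (4.35%, against 4.66%), 4 for the pooled construct (8.70%, against 3.06%), 1 in the interaction (2.17%, against 2.51%) and 4 for the construct in knockdown cells (8.70%, against 2.81%). The lowest p in the double modulation was that of EEF1A1 (0.84 ± 0.28, adjusted p = 0.940). This value was 0.39 without the footprint library of control replicate 2, 1.51 without that of control replicate 1 and 0.78 without the total RNA library of double replicate 1. DESeq2 called EEF1G for the pooled construct (adjusted p = 0.0416) and for the construct in knockdown cells. For the pooled construct, edgeR gave EEF1G 0.78 ± 0.16 (adjusted p = 0.549), which passed without the total RNA library of double replicate 1 (adjusted p = 0.000681) or replicate 2 (adjusted p = 0.00873).

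The ratio of footprint CPM to total RNA CPM differed far more between factors than between conditions. As a mean over the conditions, its log2 value ran from -6.89 for EEF1A1 and -4.76 for EIF4B to 3.54 for EIF6 and 3.98 for EEF1E1, and the widest range over conditions was 1.32, that of EEF1G. EEF1G had log2 ratios of -1.43 in the double modulation, -2.75 in the knockdown, -1.74 in the overexpression and -1.97 in the control. The median ratio was lower with more named pseudogenes in RefSeq, at -2.43 for the 10 factors with 5 or more, -0.18 for the 17 with 1 to 4 and 0.42 for the 20 with none. The groups overlapped: the 17 ran from -2.89 to 3.98, and EEF1E1, the highest of all, has 1. EEF1A1 has 50, far above the next of the 47, PABPC1 with 13, and weighs heavily in a Pearson r. Across the 47 factors the number of pseudogenes and the log2 ratio had a Pearson r of -0.611 and a Spearman rho of -0.522, as a description, since all points share the same libraries. Reads placed at several positions were not counted on genes in either assay, and the part of this in the ratios was not tested.

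**Figure D5:**
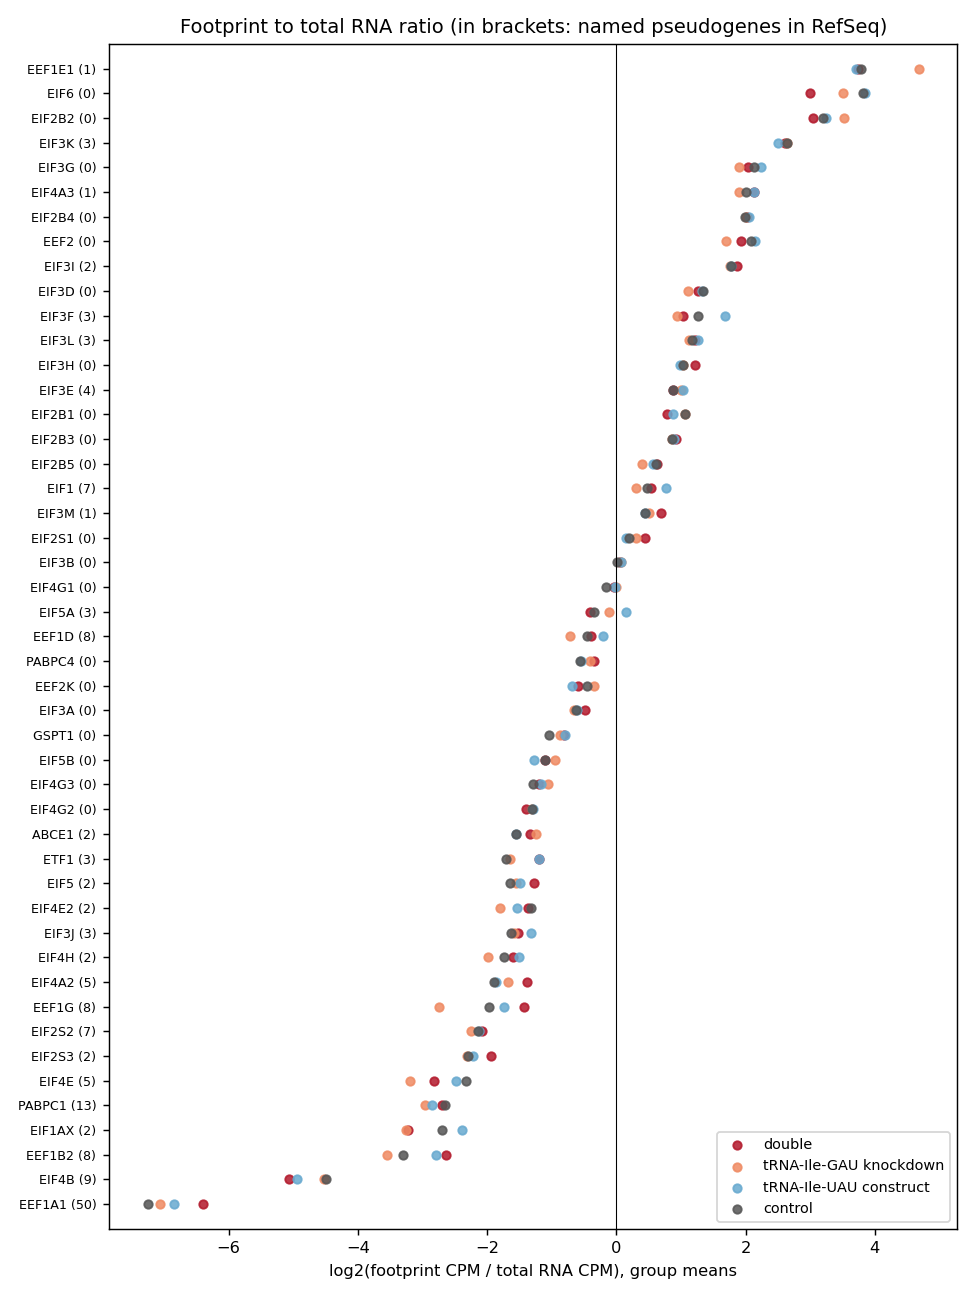
Log2 ratio of mean footprint CPM to mean total RNA CPM for each of the 47 factors with counts in both, by condition (colours), with the number of named pseudogenes in brackets. The order runs from EEF1E1 at 3.98 to EEF1A1 at -6.89, and EEF1G shows the widest spread between conditions.

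Beside these factors, 54 other translation genes were counted, among them the eIF4E-binding proteins, the eIF2 kinases and the mitochondrial factors. In footprints 42 were tested. In the double modulation none of the 42 rose and 1 fell, a share near the 1.93% of all genes called in either direction. The median was 0.03, and 7 of 42 (16.7%) reached an unadjusted p under 0.05, against 11.9% of all genes. The gene that fell was EEF1A2, a tissue-restricted eEF1A, at 58.6 and 78.2 CPM in the double modulation, 83.6 and 84.6 CPM in the knockdown, 153 and 123 CPM in the overexpression and 109 and 147 CPM in the control. It fell by 0.95 ± 0.20 on the log2 scale in the double modulation (adjusted p = 0.00141) and by 0.82 ± 0.14 with the GAU guide (adjusted p = 1.09e-05, edgeR), where all 4 libraries lay below the 4 with the eGFP guide. For the guide it was the only 1 of the 42 called, against 2.68% of all genes. EEF1A2 total RNA was low, at 7.32 to 18.7 CPM, and overlapped between the guides. None of the 42 passed for the construct in knockdown cells, and none reached an unadjusted p under 0.05. In total RNA 51 were tested. EIF2AK1, the heme-regulated eIF2 kinase on chromosome 7, fell with the GAU guide by 0.51 ± 0.07 on the log2 scale (adjusted p = 0.0139, edgeR). For the guide it was the only 1 of the 51 called, against 1.08% of all genes. Its total RNA was 195 and 194 CPM in the double modulation, 198 and 188 CPM in the knockdown, 277 and 273 CPM in the overexpression and 287 and 265 CPM in the control. Its footprints overlapped between the guides, at 66.0 and 56.3 CPM in the double modulation, 67.1 and 64.0 CPM in the knockdown, 53.0 and 70.3 CPM in the overexpression and 95.4 and 94.1 CPM in the control. The calls of EEF1A2 and EIF2AK1 were not rerun under the alternatives.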

How the data were processed

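Ribosome footprints and total RNA were measured in 8 groups of 2 libraries, named by assay, guide and construct in the labels. The values deposited by the authors are whole-number read counts for each gene symbol. The submitters' processing notes name build hg38 and the tools HTSeq, STAR 2.5.2a and cutadapt 1.17; order, settings, strand and annotation are not given in the sources used here. HTSeq set aside 97.0 to 98.8% of footprint alignments and 97.2 to 98.1% of total RNA alignments as not unique, and of uniquely placed reads 24.8 to 32.6% and 62.2 to 65.0% fell on no gene; these summary lines were left out of library sizes and tests. A gene missing from a footprint file was given 0.

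Genes kept by filterByExpr (minimum count 10, minimum total 15) were compared by edgeR 4.0.16 under R 4.3.3 (TMM, quasi-likelihood test, group means over all 8 libraries of an assay, Benjamini-Hochberg over all genes). Translational efficiency was the assay by condition interaction in 1 fit of 16 libraries. The biological coefficient of variation was 6.71% in footprints, 14.3% in total RNA and 12.5% over both. Each log2 fold change carries its standard error. The script was tested on simulated data, with footprints of some genes changed in the double modulation. In footprints it called 19 of 97 genes changed 1.5-fold and 61 of 99 changed 2-fold. In translational efficiency it called 4 of 97 and 19 of 99, so a lack of calls there does not show a lack of change.

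The members and lists were chosen with earlier results of these data known. Full values are given for members called in any comparison and, in each comparison and assay, for the 3 with the lowest p. Alternatives were DESeq2 1.42.0, its size factors in edgeR, no filter, thinning of footprints, a replicate block and leaving out each library. In footprints no pairing by replicate number was seen: deviations of same-numbered libraries had correlations of -0.0365 to 0.0565. Many footprint counts per gene are low, and counting noise can hide shared deviations, so these values cannot show that pairing is absent. In total RNA some groups shared deviations, with 0.478 for double and knockdown and -0.555 for double and overexpression, where the numbers ran in reverse. The main fit held no term for these shared deviations. Isoleucine codon content was not analysed here.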

Additional observations from a re-analysis of the deposited data

How the results depend on the processing

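With 2 libraries a group, calls near the threshold depend on single libraries; leaving one out assumes that the lone library varies like the other groups. None of the values recomputed under the alternatives, those of the factors called or among the 3 lowest p in a comparison, changed direction. In footprints the calls numbered 3 in the double modulation, against 4 with the replicate block, which added EEF1A1, 1 in DESeq2 and 0 to 2 without each library. The guide had 1 call, against 2 with the replicate block (EIF4A2 higher, EIF3B lower), 0 in DESeq2, 0 after thinning and 0 to 1 without each library. The pooled construct had 2, against 0 to 3 without each library, and the interaction 0, against 1 with the replicate block (EEF1G) and 0 to 1 without each library. The construct in knockdown cells had 2, against 1 in DESeq2, 1 after thinning and 1 to 3 without each library. In total RNA each comparison had 0 calls. Without each library this became 0 to 10 in the double modulation, 0 to 13 for the guide, 0 to 1 for the pooled construct, 0 to 5 in the interaction and 0 to 8 for the construct in knockdown cells; with no filter on low counts it was 1 in the double modulation, 1 for the guide and 1 for the construct in knockdown cells, and in DESeq2 1 for the guide. Efficiency likewise had 0 calls throughout. Leaving out a total RNA library of the double modulation gave calls in some comparisons, among all genes as well as the factors. Such fits rest on 1 total RNA library in that group. DESeq2 gave 1 for the pooled construct and 1 for the construct in knockdown cells, where no filter also gave 1. DESeq2's own filter left 17 factors without an adjusted p in footprints of the double modulation, 21 for the pooled construct and 35 for the construct in knockdown cells, EEF1G among the last. The cause of the other changes was not tested. The replicate block changed no other call of a factor. Crossing the numbers of the overexpression libraries in total RNA within the block, chosen after seeing the data, gave 0 calls in every total RNA comparison and 1 in efficiency, for the construct in knockdown cells. Depth limits EIF1AX, EIF4E, EIF4B, EEF2K and EEF1A1 in footprints and EEF1E1 in total RNA most.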
